A study of Mus musculus with 6 samples.

Results

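Glycolysis runs on enzymes that mammals encode in small gene families, and at several steps the family holds a form that skeletal muscle favours beside a form that most other cells use. The 10 genes described here are the isozymes of 5 such steps: hexokinase (Hk2), phosphofructokinase (Pfkm, Pfkl and Pfkp), aldolase (Aldoa and Aldoc), phosphoglycerate mutase (Pgam1 and Pgam2) and enolase (Eno1 and Eno3). They were listed by name and are 10 of the 17558 genes in the deposited table. Each gene's value is the sum over its transcripts, which were assigned to genes by NCBI gene number.

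The RNA came from 6 libraries of C2C12, an immortalized mouse myoblast line that withdraws from the cell cycle and fuses into myotubes when serum is lowered. All cells stably carried a hairpin construct and were harvested 48 h after transfer to medium with low horse serum and an insulin, transferrin and selenium supplement. There were 2 libraries for each of 3 hairpins: a scrambled control (shScr), a hairpin against the Pkm1 splice form of pyruvate kinase (shPkm1) and a hairpin against the Pkm2 splice form (shPkm2). The labels give all cells as wild type, and state neither the promoter of the hairpin, nor whether a line was 1 clone, nor whether the 2 libraries of a group came from separate cultures. The p-values therefore measure only the spread between these libraries, which may be technical. That spread was fitted over all 3 groups together, although the 2 shScr libraries lay further apart than either hairpin pair. The study's stated question was what Pkm1 and Pkm2 do in myoblast differentiation; here it is put to the isozymes of the pathway in which pyruvate kinase is the last step.

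Phosphofructokinase commits sugar to glycolysis, aldolase splits the 6-carbon sugar, and phosphoglycerate mutase and enolase carry out the steps just before pyruvate kinase. Pfkm, Eno3 and Pgam2 are the forms of mature muscle, and the exchange of Eno1 and Pgam1 for Eno3 and Pgam2 is a known part of muscle development. Aldoa is the aldolase of muscle as well as of many growing cells, Aldoc is best known from brain, and Hk2 is the insulin-responsive hexokinase of muscle and fat.

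The deposited tables were summed to between 18216896 and 19796036 estimated counts per library. The Pkm1 transcript (NM_001253883.1) was listed at 546 and 589 TPM (a transcript level scaled for transcript length and library total) in shScr, at 243 and 218 in shPkm1, and at 254.10 and 254.23 in shPkm2, so it was lower in both hairpin groups. The Pkm2 transcript (NM_011099.3) was at 1073 and 1517 TPM in shScr, 1278 and 1379 in shPkm1, and 2699.7 and 2629.5 in shPkm2. The Pkm2 transcript was thus not lower in the libraries labelled shPkm2, and every direction given for that group below rests on its label alone. Cell identity also differed between the groups: the 12 muscle markers (Myod1, Myog, Des, Ckm, Acta1, Actc1, Myh3, Tnnt3, Tnnc1, Mymk, Mymx and Mylpf) summed to 61245 and 44118 TPM in shScr, 21279 and 22795 in shPkm1, and 1241 and 1191 in shPkm2. All 12 were lower in each of the 3 comparisons, and none was at 0 in any library. The 6 proliferation markers summed to 143 and 173 TPM in shScr, 345 and 326 in shPkm1, and 977 and 918 in shPkm2. Of these, 4 were called higher in shPkm1 and 2 did not pass (Cdk1, 0.06, and Mcm2, 0.03 on the log2 scale), and all 6 were called higher in shPkm2 than in either other group. The part of this difference in maturity in the isozyme results was not tested. In bulk RNA, fewer cells of a type and less RNA per cell cannot be told apart.

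The stretches upstream of 5 gene starts are shown first: those of the muscle forms Pgam2, Eno3 and Pfkm and of the general forms Pgam1 and Eno1, the genes behind the shares described further on. They are RefSeq promoter entries on GRCm38.p6, cut to the 250 bases before the start and printed 5′ to 3′ on the gene's own strand, with none overlapping an annotated exon. Capitals mark matches to CANNTG, the E-box core read by the MyoD family of muscle regulators, and to the MEF2 site (by its usual consensus, CTA followed by 4 bases of A or T and TAG or TAA).
Pgam2, chr11:5803797-5804046, minus strand: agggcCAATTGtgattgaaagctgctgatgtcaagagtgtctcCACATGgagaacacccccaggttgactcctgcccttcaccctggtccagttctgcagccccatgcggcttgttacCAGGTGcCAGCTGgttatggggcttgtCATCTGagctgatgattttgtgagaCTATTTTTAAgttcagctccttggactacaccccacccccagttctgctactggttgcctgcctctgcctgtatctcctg
Pgam1, chr19:41911621-41911870, plus strand: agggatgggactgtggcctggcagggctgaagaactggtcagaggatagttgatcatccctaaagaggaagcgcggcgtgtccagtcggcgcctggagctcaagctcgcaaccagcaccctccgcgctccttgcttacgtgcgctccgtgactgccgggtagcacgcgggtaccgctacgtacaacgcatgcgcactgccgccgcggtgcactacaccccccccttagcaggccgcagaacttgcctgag
Eno3, chr11:70656926-70657175, plus strand: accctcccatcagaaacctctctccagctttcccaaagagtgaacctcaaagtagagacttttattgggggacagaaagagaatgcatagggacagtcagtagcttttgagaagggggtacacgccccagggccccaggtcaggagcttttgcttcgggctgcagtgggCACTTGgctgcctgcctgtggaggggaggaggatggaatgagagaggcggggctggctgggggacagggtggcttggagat
Eno1, upstream start, chr4:150236458-150236707, plus strand: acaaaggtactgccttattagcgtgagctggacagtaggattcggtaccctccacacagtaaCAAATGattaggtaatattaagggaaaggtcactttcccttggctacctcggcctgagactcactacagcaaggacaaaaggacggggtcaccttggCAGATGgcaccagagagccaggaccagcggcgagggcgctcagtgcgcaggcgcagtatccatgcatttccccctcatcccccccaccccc
Pfkm, upstream start, chr15:98092339-98092588, plus strand: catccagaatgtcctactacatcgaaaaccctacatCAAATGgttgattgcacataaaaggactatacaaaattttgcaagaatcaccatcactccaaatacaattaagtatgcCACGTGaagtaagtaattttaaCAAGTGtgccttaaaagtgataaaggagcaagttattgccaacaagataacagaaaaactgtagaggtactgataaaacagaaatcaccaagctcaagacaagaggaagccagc

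The Pgam2 stretch held 5 matches to CANNTG, at -245, -207, -132, -125 and -105 (the first base of the match, with -1 the last base printed). The match at -125 is CAGCTG, the form of the E-box often bound by MyoD, and a MEF2 site began at -80. The Pgam1 stretch held no CANNTG and no MEF2 site; it held ACGTG at -114 and GCGTG at -175 and -88, the letters of the element that HIF-1 reads. Such letters were also present in the stretches of Eno3 (GCGTG at -130), Eno1 (GCGTG at -230) and Pfkm (ACGTG at -136 and -135, 1 on each strand), and not in that of Pgam2. One CANNTG lay at -81 in Eno3, and matches lay at -188 and -91 in the upstream Eno1 stretch and at -214, -136 and -114 in the upstream Pfkm stretch. Eno1 has 3 windows, and the one printed is the 1 that overlaps no exon. It lies upstream of the first base of the main Eno1 transcript (NM_023119.2, chr4:150236952), and the other 2 windows held no CANNTG and 2 matches to GCGTG each. Apart from the MEF2 site, these motifs are common. Among 32851 promoters of the same length and on both strands, CANNTG was present in 66.2%, GCGTG in 28.2%, ACGTG in 16.6%, CAGCTG in 13.0% and the MEF2 site in 1.69%, and CAGCTG is one of the forms of CANNTG. All 10 genes had at least 1 entry, with 18 windows in all, of which 10 windows of 6 genes held CANNTG. The Pgam2 window was the 1 window of the 18 with CAGCTG and the 1 with a MEF2 site. These are matches of letters, not binding sites.

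The muscle forms Pfkm, Eno3 and Pgam2 fell after both hairpins, as did Aldoa and Hk2, while Pgam1 and Pfkp rose. In shPkm1 against shScr, 3 of the 10 genes rose (Pfkp, Aldoc, Pgam1), 5 fell (Hk2, Pfkm, Aldoa, Eno3, Pgam2) and 2 did not pass (Pfkl, Eno1). In the libraries labelled shPkm2 against shScr, 2 rose (Pfkp, Pgam1), the same 5 fell, and Pfkl, Aldoc and Eno1 did not pass. Change was the rule in these libraries: edgeR's quasi-likelihood test (Benjamini-Hochberg adjusted p under 0.05 over 12643 genes) called 63.1% of all genes in the first comparison (31.8% higher, 31.4% lower) and 68.0% in the second (33.9% higher, 34.2% lower). Against that background, 8 of 10 and 7 of 10 calls say little about the 10 genes as a group, and the size and direction of each change carry the description. The median log2 fold change of the 10 genes was -0.56 in shPkm1 and -0.59 in shPkm2, beside -0.00 and 0.01 over all genes tested. The 10 genes were chosen with earlier results of these data known, so their medians are a description only. Both comparisons share the same 2 shScr libraries, so they are not independent of each other. Compared directly, shPkm2 was higher than shPkm1 for 2 genes (Hk2, Pgam1), lower for 5 (Pfkm, Pfkp, Aldoc, Eno3, Pgam2), and not different by this test for 3, where 53.0% of all genes were called (25.7% higher, 27.3% lower). The median of the 10 genes there was -0.30.

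The scale matters for the small changes. Fold changes were computed on counts with TMM scaling, which centres the typical gene near no change. TPM values sum to a fixed total, and on log2(TPM + 1) the median gene was higher by 0.31 in shPkm1 and 0.36 in shPkm2. The reason for this shift was not tested. With library totals as the only scaling the median gene was higher by 0.19 and 0.33, and the calls split into 5116 higher and 2656 lower in shPkm1 (4018 and 3966 with TMM), 6095 and 2702 in shPkm2 (4283 and 4319 with TMM), and 4280 and 2699 between the hairpins (3246 and 3457 with TMM). Eno1 and Pfkl change sign between these scales and are given on both. The other 8 genes kept their direction under every scaling in each of the 3 comparisons.

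**Figure D1:**
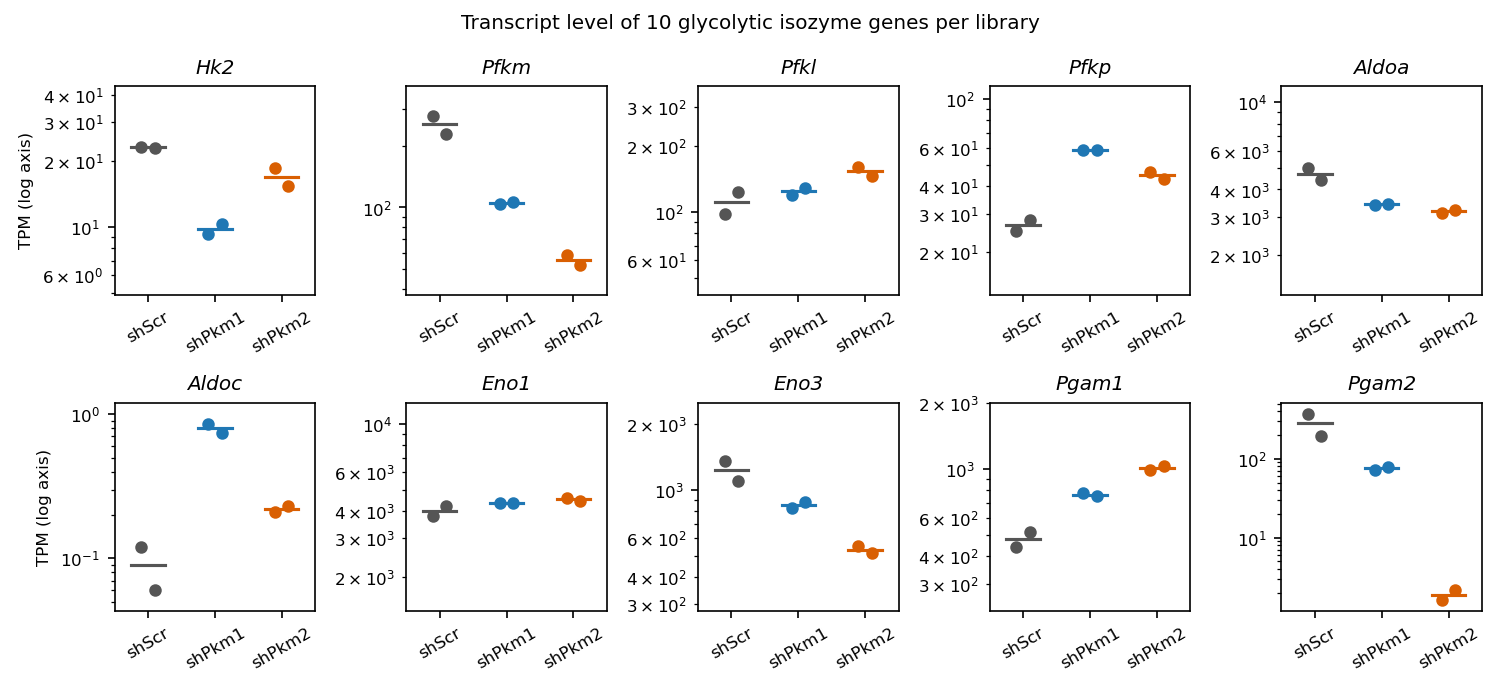
Level of each isozyme gene in TPM (log axis, a separate range for each gene) in the 2 libraries of shScr, shPkm1 and shPkm2; points are libraries and lines are group means. Pgam2 falls from 368 and 195 TPM in shScr to 1.63 and 2.18 in shPkm2, while Pgam1 climbs from 439 and 517 to 995 and 1028.

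At the first step, Hk2 phosphorylates glucose on entry into the cell. It was at 23.3 and 22.8 TPM in shScr, at 9.23 and 10.2 in shPkm1, and at 18.5 and 15.3 in shPkm2. The 3 groups did not overlap, and shPkm1 was the low one. Hk2 fell in shPkm1 (log2 fold change -1.63 ± 0.12 SE; edgeR, adjusted p = 1.33e-07) and, by less, in shPkm2 (-0.91 ± 0.12; edgeR, adjusted p = 1.27e-05), and it was higher in shPkm2 than in shPkm1 (0.73 ± 0.12; edgeR, adjusted p = 2.04e-04). Hk2 was thus the 1 gene of those that fell under both hairpins for which shPkm1 was the lower group. Its partner Hk1, the general hexokinase, was at 157.6 and 162.9 TPM in shScr, 128.0 and 130.5 in shPkm1, and 200.5 and 174.5 in shPkm2. Hk2 therefore made up 12.9% and 12.3% of the summed TPM of both genes in shScr, 6.72% and 7.28% in shPkm1, and 8.44% and 8.07% in shPkm2. For shScr the sum itself was 183 ± 3.49 TPM (SD, n = 2), against 139 ± 2.43 in shPkm1 and 204 ± 20.6 in shPkm2. On TMM-scaled counts the sum was 564 and 515 CPM in shScr, 292 and 317 in shPkm1, and 451 and 411 in shPkm2, so shPkm1 was the lowest on both scales, while the order of shScr and shPkm2 turned with the scale.

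Phosphofructokinase showed a change of leading isozyme. Pfkm, the muscle subunit, was at 279 and 229 TPM in shScr, 104 and 106 in shPkm1, and 58.7 and 52.5 in shPkm2. The groups were well apart, in the order shScr, shPkm1, shPkm2. Pfkm fell in shPkm1 (log2 fold change -1.67 ± 0.14 SE; edgeR, adjusted p = 3.35e-07) and in shPkm2 (-2.65 ± 0.14; edgeR, adjusted p = 2.74e-09), and it was lower in shPkm2 than in shPkm1 (-0.98 ± 0.14; edgeR, adjusted p = 4.70e-05). On the fold scale this was 3.18-fold lower in shPkm1 and 6.27-fold lower in shPkm2.

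Pfkl, the liver-type subunit found in many tissues, was at 97.5 and 123 TPM in shScr, 119 and 129 in shPkm1, and 160 and 145 in shPkm2. The shScr and shPkm1 libraries overlapped. On TMM-scaled counts Pfkl did not pass in shPkm1 (log2 fold change -0.23, 95% interval -0.46 to 0.01; edgeR, adjusted p = 0.0828), in shPkm2 (0.02, -0.22 to 0.25; edgeR, adjusted p = 0.900) or between the hairpins (0.24, 0.01 to 0.47; edgeR, adjusted p = 0.0734). On log2(TPM + 1), limma gave 0.18 in shPkm1 and a call of 0.47 in shPkm2, so the direction in shPkm1 turns with the scale and the call in shPkm2 appears with it. With library totals as scaling, edgeR likewise called Pfkl in shPkm2 (0.34, adjusted p = 0.0180) and between the hairpins (0.37, adjusted p = 0.0141). Between the hairpins the TMM value of 0.24 also passed in edgeR when only those 2 groups were fitted (adjusted p = 0.0142) and without either shScr library (adjusted p = 0.0158 and 0.0155), and without the first shScr library Pfkl was called lower in shPkm1 (-0.31; edgeR, adjusted p = 0.0116). Whether Pfkl passes thus depends on these choices.

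Pfkp, the platelet-type subunit, was at 24.99 and 27.9 TPM in shScr, 58.5 and 58.2 in shPkm1, and 46.6 and 43.0 in shPkm2. Both hairpin groups lay above shScr, with shPkm1 the highest. Pfkp rose in shPkm1 (log2 fold change 0.77 ± 0.09 SE; edgeR, adjusted p = 1.21e-05) and in shPkm2 (0.34 ± 0.09; edgeR, adjusted p = 0.00576), and it was lower in shPkm2 than in shPkm1 (-0.43 ± 0.09; edgeR, adjusted p = 0.00154). The call in shPkm2 was lost without the first shPkm2 library (0.31; edgeR, adjusted p = 0.0623).

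In terms of the family, Pfkm supplied 64.9% ± 6.49 (SD, n = 2) of the summed TPM in shScr, 36.6% ± 0.361 in shPkm1 and 22.0% ± 0.223 in shPkm2. Pfkl went from 24.3% and 32.4% in shScr to 42.4% and 43.8% in shPkm1 and 60.3% in both shPkm2 libraries. It was thus the leading form in both hairpin groups, where Pfkm led in shScr. Pfkp supplied 6.23% and 7.35% in shScr, 20.8% and 19.9% in shPkm1, and 17.5% and 17.9% in shPkm2. Most of this share was not a coding transcript. The predicted non-coding model XR_001780792.1 made up 85.1%, 84.8% and 83.2% of Pfkp TPM on average in shScr, shPkm1 and shPkm2. The coding transcript NM_019703.4 had means of 3.65, 6.96 and 6.57 TPM. The family total was 391 ± 15.1 TPM in shScr, 287 ± 8.29 in shPkm1 and 253 ± 17.5 in shPkm2, so the total was lower in both hairpin groups, as it was on TMM-scaled counts (838 ± 95.1, 482 ± 32.7 and 415 ± 15.1 CPM). Shares were not tested across genes; with 2 libraries against 2 the smallest p an exact two-sided permutation test can give is 0.333, whatever the separation.

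Aldoa was one of the most abundant of the 10 genes, at 5026 and 4412 TPM in shScr, 3409.99 and 3434 in shPkm1, and 3117 and 3237 in shPkm2. Both hairpin groups lay below shScr. The fall was 1.80-fold in shPkm1 (log2 fold change -0.85 ± 0.15 SE; edgeR, adjusted p = 2.62e-04) and 2.02-fold in shPkm2 (-1.02 ± 0.15; edgeR, adjusted p = 4.56e-05). A difference between the hairpins was not detected (-0.16, 95% interval -0.48 to 0.15; edgeR, adjusted p = 0.368). Aldoc stayed a trace component: it had 4 and 2 counts in shScr, 23 and 22 in shPkm1, and 6 and 7 in shPkm2, or at most 0.86 TPM. It rose in shPkm1 (log2 fold change 2.66 ± 0.51 SE; edgeR, adjusted p = 5.41e-04), and the summed counts, 45 against 6, gave a ratio of 7.44 with an exact 95% interval from 3.17 to 21.3 for counting error alone. The fitted value was 3.30 without the first shScr library. In shPkm2 the ratio was 2.15 (0.763 to 6.90) and Aldoc did not pass (edgeR, adjusted p = 0.308), though limma on log2(TPM + 0.1) called it (0.77, adjusted p = 0.0470). Even so, Aldoa supplied at least 99.97% of the summed aldolase TPM in every library, so the aldolase step showed a lower total, 4719 ± 434 TPM in shScr, 3423 ± 16.6 in shPkm1 and 3177 ± 84.4 in shPkm2, rather than a switch.

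The mutase pair differed most. Pgam2, the muscle mutase, was at 368 and 195 TPM in shScr, 72.3 and 79.2 in shPkm1, and 1.63 and 2.18 in shPkm2, where only 15 and 21 counts were left of 3789 and 1976 in shScr. The 3 groups were widely separated, and the 2 shScr libraries differed from each other more than those of any other gene here apart from Aldoc. Pgam2 fell 4.96-fold in shPkm1 (log2 fold change -2.31 ± 0.25 SE; edgeR, adjusted p = 4.95e-06) and 204-fold in shPkm2 (-7.68 ± 0.39, 95% interval -8.52 to -6.83; edgeR, adjusted p = 1.74e-09). Between the hairpins it was 41.2-fold lower in shPkm2 (-5.36 ± 0.41; edgeR, adjusted p = 1.67e-07). The first shScr library, with the higher muscle markers, carried part of the size: without it the log2 fold changes were -1.66 in shPkm1 and -7.02 in shPkm2.

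Pgam1, the mutase of most other tissues, was at 439 and 517 TPM in shScr, 776 and 753 in shPkm1, and 995 and 1028 in shPkm2, in the reverse order of Pgam2 and again without overlap. On TMM-scaled counts the rise was 1.55-fold in shPkm2 (log2 fold change 0.63 ± 0.11 SE; edgeR, adjusted p = 1.91e-04). It was 1.22-fold in shPkm1 (0.29 ± 0.11; edgeR, adjusted p = 0.0328), a call that was lost without either shPkm1 library (adjusted p = 0.0973 and 0.139) or either shPkm2 library (0.0529 and 0.0527) in edgeR, and when only those 2 groups were fitted (0.0552). The call between the hairpins (0.34 ± 0.11; edgeR, adjusted p = 0.0184) was likewise lost without any 1 of the 4 hairpin libraries, with values from 0.27 to 0.39.

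As a ratio, Pgam1 exceeded Pgam2 by 1.19 and 2.65 times in shScr, by 10.7 and 9.50 times in shPkm1, and by 611 and 472 times in shPkm2. Pgam2 supplied 36.5% ± 12.9 (SD, n = 2) of mutase TPM in shScr, 9.02% ± 0.705 in shPkm1 and 0.188% ± 0.0340 in shPkm2. Their total was 760 ± 67.2 TPM in shScr, 840 ± 11.0 in shPkm1 and 1014 ± 23.5 in shPkm2. On TMM-scaled counts it was 791 ± 73.4, 788 ± 16.5 and 954 ± 58.7 CPM, so shPkm2 was the highest on both scales, and the higher total of shPkm1 was seen in TPM but not in CPM.

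Eno3, the muscle enolase, was at 1356 and 1095 TPM in shScr, 827 and 882 in shPkm1, and 552 and 512 in shPkm2. The groups did not overlap and followed the order of Pfkm and Pgam2. Eno3 fell 1.89-fold in shPkm1 (log2 fold change -0.92 ± 0.15 SE; edgeR, adjusted p = 1.31e-04) and 3.19-fold in shPkm2 (-1.67 ± 0.15; edgeR, adjusted p = 4.59e-07), and it was lower in shPkm2 than in shPkm1 (-0.76 ± 0.15; edgeR, adjusted p = 7.54e-04).

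Eno1, the general enolase, was at 3778 and 4229 TPM in shScr, 4354 and 4340 in shPkm1, and 4597 and 4425 in shPkm2. In TPM it therefore stood slightly higher in the hairpin groups. On TMM-scaled counts it stood slightly lower: -0.27 (95% interval -0.55 to 0.01; edgeR, adjusted p = 0.0885) in shPkm1 and -0.28 (-0.56 to 0.00; edgeR, adjusted p = 0.0723) in shPkm2. DESeq2 called both (-0.27, adjusted p = 0.00669, and -0.29, adjusted p = 0.00332), as did edgeR without the second shScr library (-0.27, adjusted p = 0.0496, and -0.28, adjusted p = 0.0395). The sign turned to 0.12 and 0.17 with limma on log2(TPM + 1), so no direction is given for Eno1. Its values are also uncertain because Eno1b, a near-identical copy, held 1237 to 1578 TPM across the libraries, and reads can be divided between the 2 genes in either way.

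For shScr the share of Eno3 in the pair was 23.5% ± 4.14 (SD, n = 2), against 16.4% ± 0.652 in shPkm1 and 10.5% ± 0.235 in shPkm2. The pair's total was 5134 and 5324 TPM in shScr, 5181 and 5223 in shPkm1, and 5149 and 4937 in shPkm2. The shScr range enclosed shPkm1 and overlapped shPkm2, where the second library was the lowest of the 6. On TMM-scaled counts, in contrast, the total was lower in both hairpin groups without overlap, at 6538 and 6049 CPM in shScr, 4689 and 4978 in shPkm1, and 4487 and 4549 in shPkm2. With Eno1b, Eno2 and Eno4 counted into the family the Eno3 share was 18.5%, 12.9% and 8.06%, in the same order. Enolase thus differed from the mutase step in degree: the general form dominated in all 6 libraries, and the muscle form was reduced but remained at 512 TPM or more where Pgam2 was at 2.18 or less.

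**Figure D2:**
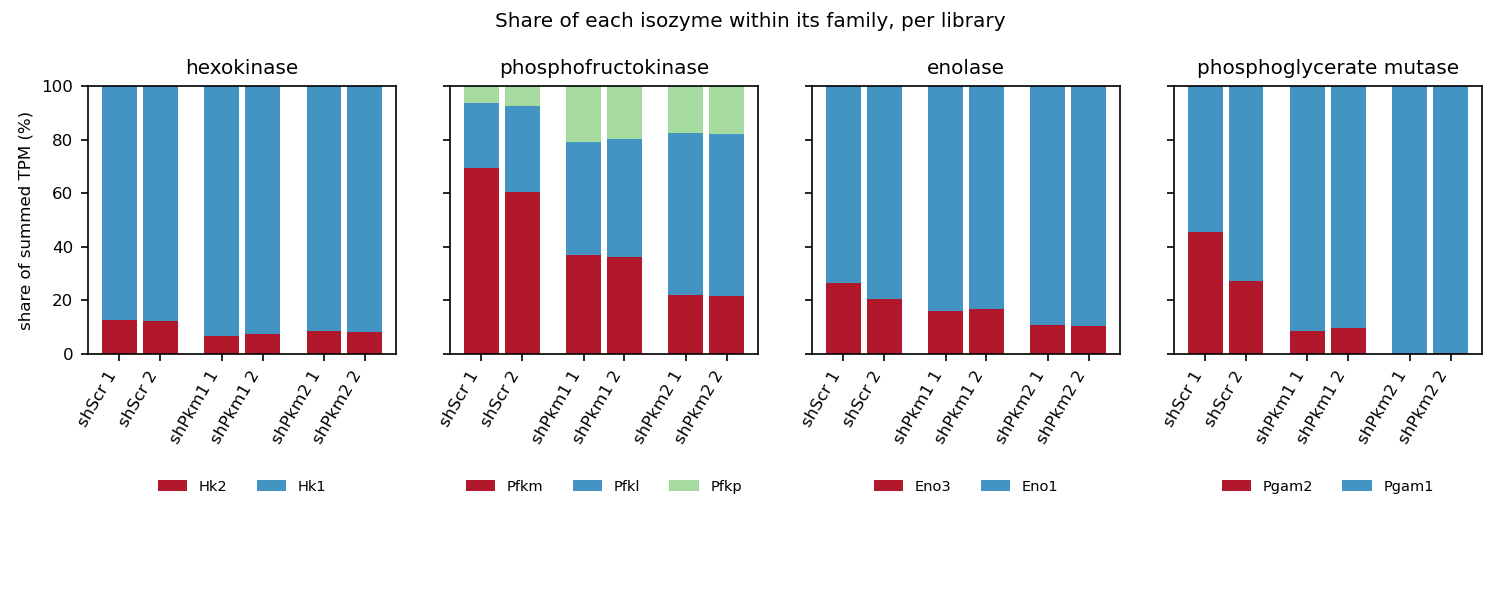
Share of each isozyme in the summed TPM of its family (percent, bars from 0 to 100) in each of the 6 libraries; red is the muscle-favoured form, and aldolase is left out because Aldoa supplied at least 99.97% throughout. The red part shrinks from shScr to shPkm1 to shPkm2 for Pfkm (64.9%, 36.6%, 22.0% on average), Eno3 (23.5%, 16.4%, 10.5%) and Pgam2 (36.5%, 9.02%, 0.188%), but not in that order for Hk2.

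**Figure D3:**
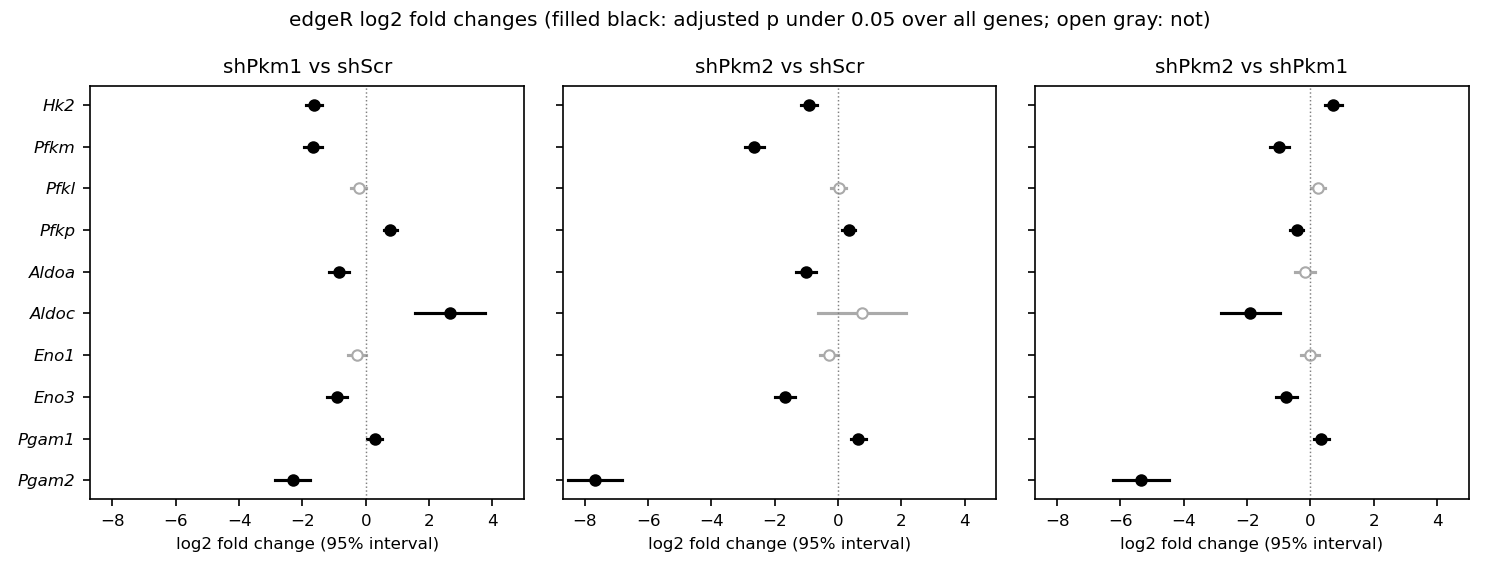
Log2 fold change of each gene with its 95% interval from edgeR on TMM-scaled counts, in the 3 comparisons on 1 common axis; filled points passed an adjusted p of 0.05 over all genes. Pgam2 stands far to the left in shPkm2 (-7.68), and the wide interval of Aldoc reflects counts of 23 or fewer.

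Ordered by length-scaled level, shScr had Aldoa (mean 4719 TPM) and Eno1 (4004) at the top, then Eno3 (1225), Pgam1 (478), Pgam2 (282), Pfkm (254), Pfkl (110), Pfkp (26.5), Hk2 (23.0) and Aldoc (0.0900). Pgam2 and Pfkm could not be ordered there, since the range of the first enclosed that of the second. In shPkm2 the order was Eno1 (4511), Aldoa (3177), Pgam1 (1012), Eno3 (532), Pfkl (153), Pfkm (55.6), Pfkp (44.8), Hk2 (16.9), Pgam2 (1.90) and Aldoc (0.220). Eno1 and Aldoa had changed places, and so had Pgam1 and Eno3 and Pfkl and Pfkm, each without overlap of the libraries. The exchange of Eno1 and Aldoa rests on how reads were divided between Eno1 and Eno1b: with Eno1b added, Eno1 was at 5015 and 5805 TPM in shScr, which overlapped Aldoa (5026 and 4412) and had the higher mean. Pgam2 stood below Hk2 there, and far above it in shScr. The sum of the muscle forms Pfkm, Eno3 and Pgam2 was 1761 ± 342 TPM in shScr, 1036 ± 45.7 in shPkm1 and 589 ± 31.6 in shPkm2.

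Within 3 of the genes the make-up of transcripts moved too. The table held 31 transcripts of the 10 genes, of which 27 had enough counts to test among 33433 transcripts. Of the 27, edgeR called 1 higher and 6 lower in shPkm1 (10.8% of all transcripts were called), 1 higher and 11 lower in shPkm2 (17.2%), and 1 higher and 8 lower between the hairpins (7.91%). These calls were fragile: 8 to 12 were made in shPkm2 when 1 library was left out, but 0 to 11 in shPkm1 and 0 to 6 between the hairpins. The count of 0 in shPkm1 came without its first library, with 13 transcripts at an unadjusted p under 0.05. Between the hairpins it came without either shPkm1 library or the first shPkm2 library, with 12, 11 and 12 transcripts at an unadjusted p under 0.05. Transcript values also depend on how the authors' estimation divided reads that transcripts share, and several transcripts here are predicted models.

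Aldoa has several annotated starts. NM_007438.4, which begins at chr7:126799254 on the minus strand in GENCODE M21, made up 75.7% and 77.6% of Aldoa TPM in shScr, 87.0% and 86.0% in shPkm1, and 92.5% and 92.6% in shPkm2. NM_001177308.1 begins further upstream, at chr7:126800447, and made up 4.86% and 4.91%, 2.91% and 2.54%, and 0.825% and 1.05% in the same order. The predicted transcript XM_006507210.2 made up 17.8% and 16.1%, 8.11% and 9.24%, and 3.47% and 3.36%. The 2 minor transcripts thus lost ground to the main one in both hairpin groups, more in shPkm2. In level, NM_001177308.1 fell by 3.37 ± 0.22 on the log2 scale in shPkm2 (edgeR, adjusted p = 0.00200) and XM_006507210.2 fell by 3.33 ± 0.21 (edgeR, adjusted p = 0.00193), against -0.73 ± 0.15 for NM_007438.4 (edgeR, adjusted p = 0.0341). The call of NM_007438.4 was lost with library totals as scaling (-0.43) and with a replicate block (-0.73, edgeR adjusted p = 0.0892). It was also lost without any 1 library other than the second shScr library (-0.56 to -0.80).

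Pfkm has starts far apart in the annotation. NM_021514.4 begins at chr15:98092644, next to the upstream stretch printed above, and NM_001163487.1 begins at chr15:98108466 on the same strand. The upstream transcript had 4211 and 2219 estimated counts in shScr, 837 and 833 in shPkm1, and 0 in both shPkm2 libraries. Against a floor of 3 counts per library it was at least 1087-fold lower in shPkm2 than in shScr and at least 279-fold lower than in shPkm1. The other transcript was at 134 and 141 TPM in shScr, 64.3 and 67.6 in shPkm1, and 51.5 and 48.2 in shPkm2, and fell by 1.41 ± 0.08 in shPkm1 (edgeR, adjusted p = 0.00399) and by 1.89 ± 0.08 in shPkm2 (edgeR, adjusted p = 0.00101) on the log2 scale. An estimate of exactly 0 can reflect how shared reads were assigned, so it is given here as listed. Together these changes left NM_001163487.1 with 87.7% and 91.8% of Pfkm TPM in shPkm2, up from 47.9% and 61.4% in shScr.

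Eno1, which gave no clear change as a gene, had one minor transcript that fell. The predicted transcript XM_017319953.1 made up 31.9% and 15.4% of Eno1 TPM in shScr, 8.10% and 9.59% in shPkm1, and 0.937% and 0.919% in shPkm2. The shScr libraries were far apart, and the difference in shPkm1 did not pass (-1.65 ± 0.36; edgeR, adjusted p = 0.0584). In shPkm2 it fell by 4.92 ± 0.42 on the log2 scale (edgeR, adjusted p = 0.00366). Both values moved with the shScr libraries: without the first they were -1.05 in shPkm1 and -4.30 in shPkm2, and without the second -2.07, then with a call, and -5.34. The main transcript NM_023119.2 did not pass in either (0.02 ± 0.15 and 0.12 ± 0.15). Of the Eno3 transcripts, NM_001136062.2 fell by 1.60 ± 0.19 and NM_007933.3 by 1.83 ± 0.17 in shPkm2 (edgeR, adjusted p = 0.00846 and 0.00452), so both main forms were lower. For Pfkp the predicted non-coding model XR_001780792.1 carried most of the TPM, 21.6 and 23.5 in shScr, and rose by 0.78 ± 0.07 in shPkm1 (edgeR, adjusted p = 0.00934). It did not pass in shPkm2 (0.30, edgeR adjusted p = 0.0580). The coding transcript NM_019703.4 passed in neither hairpin group (0.59 and 0.43, edgeR adjusted p = 0.195 and 0.290).

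**Figure D4:**
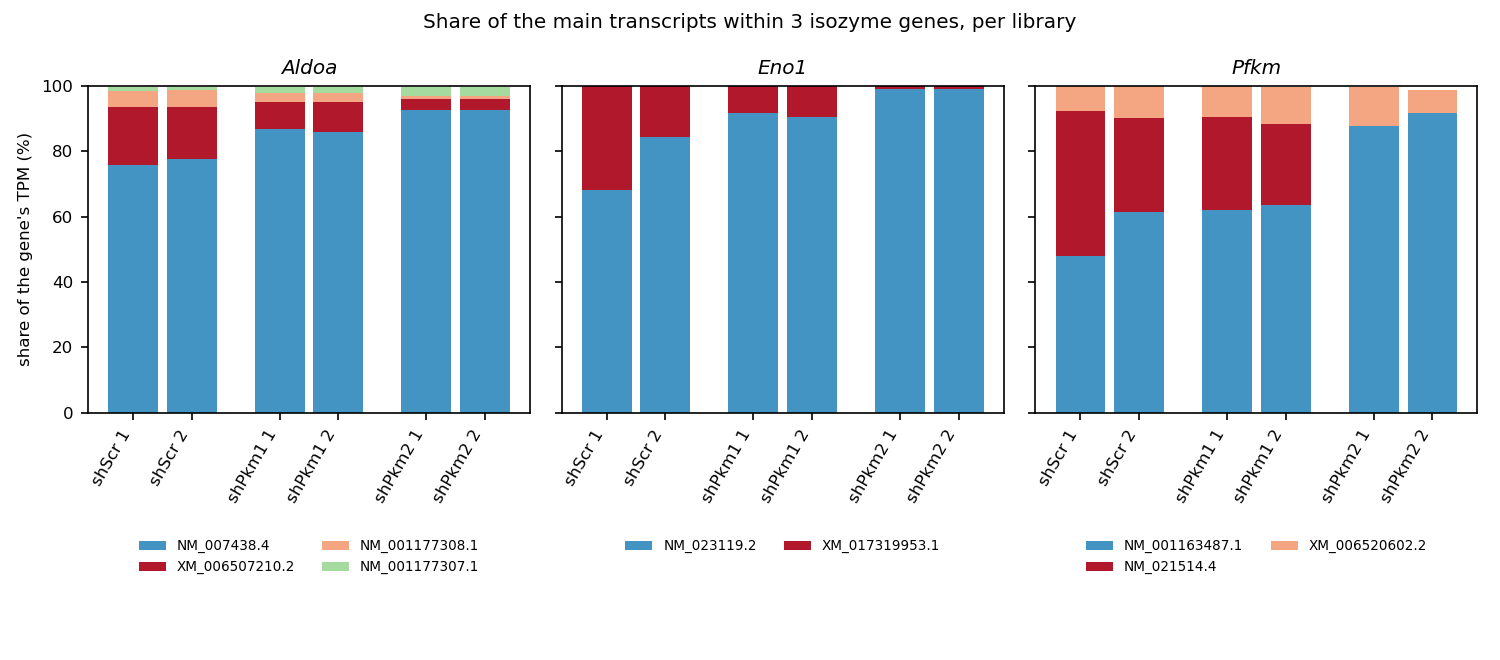
Share of each main transcript in the TPM of Aldoa, Eno1 and Pfkm (percent) in each of the 6 libraries; bars that do not reach 100 leave out minor transcripts. The main transcript of each gene takes a larger part from shScr to shPkm2, and the upstream Pfkm transcript NM_021514.4 is absent from both shPkm2 bars.

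The other genes of the pathway were tested in the same fit. Of 21 further glycolytic genes listed, 18 were in the table and 12 had enough counts to test. In shPkm1, 1 rose and 6 fell (median log2 fold change -0.31), and in shPkm2 likewise 1 rose and 6 fell (median -0.28). These shares lie below the 63.1% and 68.0% called among all genes, so the counts say nothing particular about the list. Triosephosphate isomerase, Tpi1, which interconverts the products of aldolase, fell in both (-0.76 and -0.83; edgeR, adjusted p = 3.29e-04 and 1.30e-04). Hk1 fell in shPkm1 (-0.70; edgeR, adjusted p = 7.51e-05) but stood higher in shPkm2 than in shPkm1 (0.48; edgeR, adjusted p = 0.00196). The Pkm gene as a whole fell in shPkm1 (-0.63; edgeR, adjusted p = 0.00107; not called by limma on log2(TPM + 1), at -0.24) and did not pass in shPkm2 (0.20; edgeR, adjusted p = 0.198). Gapdh and Bpgm were called lower in shPkm2 (-0.52 and -0.45; edgeR, adjusted p = 0.0144 and 0.00318), and both calls were lost with library totals as scaling (-0.19 and -0.13) and without the first shPkm2 library (-0.43 and -0.36). Adpgk, an ADP-dependent glucokinase, rose in shPkm1 (0.42; edgeR, adjusted p = 0.00377). Eno4 was called higher in shPkm2 (1.99; edgeR, adjusted p = 0.0106) from 15 and 16 counts against 4 and 2, a call lost in DESeq2 (adjusted p = 0.104) and without the second shScr library (1.51) or the second shPkm2 library (1.94), while without the first shScr library it was 2.63 and still called. Between the hairpins 3 were higher and 2 lower in shPkm2 (median 0.10), beside 53.0% called among all genes. There the Pkm gene was higher (0.83; edgeR, adjusted p = 1.59e-04) and Eno2, the neuronal enolase, was lower (-0.69; edgeR, adjusted p = 1.21e-04). The largest fall among these 12 genes in shPkm2 was that of Tpi1, beside -2.65 for Pfkm and -7.68 for Pgam2.

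Of 14 factors known from muscle or glycolytic transcription, 12 could be tested. In each hairpin group 4 rose and 6 fell, and between the hairpins 2 were higher and 5 lower in shPkm2, where 63.1%, 68.0% and 53.0% of all genes were called. Nothing particular to these factors is read from the counts. Myog, the myogenin gene needed for terminal differentiation, was at 2126 and 2051 TPM in shScr, 1429.8 and 1437 in shPkm1, and 67.2 and 73.5 in shPkm2. Myog fell in shPkm1 (log2 fold change -0.94; edgeR, adjusted p = 3.19e-05) and in shPkm2 (-5.35; edgeR, adjusted p = 1.06e-11), an order shared with Pgam2. Mef2c fell by 2.25 and 6.02 on the log2 scale (edgeR, adjusted p = 0.00112 and 6.67e-06), from 367 and 97 counts in shScr to 57 and 58 and then to 5 and 4. Without the first shScr library those values were -0.88 and -4.64, and without the second they were -2.96 and -6.72. Myod1 fell in both groups (-0.90 and -2.22; edgeR, adjusted p = 8.09e-06 and 1.19e-09), while Myf5, a marker of the myoblast state, rose in shPkm2 (1.74; edgeR, adjusted p = 9.39e-09). Myoblast markers did not all go that way: of the 6 listed, 4 rose and 2 fell in shPkm2. Hif1a, a factor that drives glycolytic genes at low oxygen, rose in both groups (1.24 and 1.36; edgeR, adjusted p = 7.06e-07 and 1.69e-07), Myc rose in both (0.55 and 0.37; edgeR, adjusted p = 0.00105 and 0.0130), with its call in shPkm2 lost without the second shScr library (0.25) or the first shPkm2 library (0.32), and Esrra, a nuclear receptor of oxidative metabolism, fell in both (-1.08 and -1.24; edgeR, adjusted p = 2.92e-06 and 4.74e-07). Six4, of a homeobox family linked to fast muscle genes, rose in both (0.42 and 0.49; edgeR, adjusted p = 0.0122 and 0.00450); the call was lost without the first shScr or the first shPkm1 library in shPkm1 and without the first shPkm2 library in shPkm2. These are RNA levels of the factors, and their part in the isozyme changes was not tested.

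By profile over the 6 libraries (Euclidean distance between centred log2 CPM, among 10708 genes), the genes most like Pgam2 were Apobec2 (0.300), Tnni2 (0.379) and Tnnt3 (0.560), of which Tnnt3 is also on the muscle marker list. No other isozyme gene was close to Pgam2: the nearest, Pfkm, was at 5.29. Eno3 and Aldoa were nearest to each other (0.732), and the isozyme gene nearest to Pfkm was Eno3 (1.03). The genes most like Pfkm were Klhl30, Lynx1 and Tubb6, and those most like Aldoa were Ptpmt1, Ndufs3 and Ndufb8. For Eno3 they were Tbc1d24, Mpi and Ctf1, for Hk2 Slc20a2, Gata4 and Taf9b, and for Pgam1 Cibar1, Pdia6 and Agfg2. Such likeness describes these 6 libraries in 3 groups only.

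Most markers of other lineages were near 0. Of 15 markers of fat, bone, cartilage, nerve, blood, endothelium and epithelium, 13 were in the table and 10 stayed under 1 TPM in every library, and their sum was 17.4 and 31.1 TPM in shScr, 22.9 and 24.8 in shPkm1, and 35.3 and 33.6 in shPkm2. Most of that sum was Tubb3, a neuronal tubulin, at 15.6 and 29.0 TPM in shScr, 20.5 and 22.4 in shPkm1, and 34.3 and 31.2 in shPkm2, above Hk2 in every library but the first of shScr. Tubb3 was the 1 marker of this list with enough counts to test. It did not pass against shScr (log2 fold change -0.42 and 0.12; edgeR, adjusted p = 0.0559 and 0.562), and it was called higher in shPkm2 than in shPkm1 (0.54; edgeR, adjusted p = 0.0205), a call lost without any 1 of the 4 hairpin libraries. In shPkm1 it was called lower with a replicate block (-0.40, edgeR adjusted p = 0.0362) and with no low-count filter (-0.41, edgeR adjusted p = 0.0475). In shPkm2 limma on log2(TPM + 1) called it higher (0.60, adjusted p = 0.0247). The shScr libraries were far apart: without the first one Tubb3 was called lower in shPkm1 (-0.73) and stood at -0.19 in shPkm2, and without the second it was called higher in shPkm2 (0.53). Its part in the isozyme results was not tested. The 6 markers of undifferentiated myoblasts (Pax7, Myf5, Id1, Id2, Id3 and Cdh15) summed to 372 and 507, 492 and 525, and 687 and 672 TPM. Of these, 3 rose and 1 fell in shPkm1, and 4 rose and 2 fell in shPkm2, so the sum does not give the direction of each marker.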

How the data were processed

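Gene-level values were obtained from 1 deposited table with 57920 transcript rows, mapped to symbols by NCBI gene number (17445 of 17558 genes matched; unmatched genes held at most 0.148% of counts). Per the file headers, the authors deposited estimated counts, FPKM and TPM per transcript and library. The TPM values deposited by the authors sum to about 1000000 per library, and the FPKM values deposited by the authors were used only for an alternative. HISAT, StringTie, Bowtie, RSEM and DESeq2 and build mm10 are named in the submitters' processing notes, with no role or version. The 9 columns of the authors' group means were not used.

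Estimated counts were summed per gene, rounded, filtered (filterByExpr, minimum count 10 and total 15; all 10 genes passed) and tested with edgeR 4.0.16 in R 4.3.3: TMM scaling, 1 quasi-likelihood fit over the 6 libraries, 2-sided tests, Benjamini-Hochberg adjustment over 12643 genes, threshold 0.05. The biological coefficient of variation was 0.0851. Transcripts were fitted in the same way. A value after ± in a fold change is a standard error (from the fold change and its F statistic). The code was tested on simulated data. Limma 3.58.1, DESeq2 1.42.0, other scalings and filters, a replicate block and leaving out each library were alternatives. Counting intervals and floors cover counting error only. Groups and replicate numbers came from the sample titles.

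The 10 genes and the gene lists were chosen with earlier results of these data known. Named were all 10 genes; Pkm; up to 3 rising and 3 falling genes with a call per list and comparison; transcripts with a mean of at least 50 counts; and the 3 genes of nearest profile. Eno1b, Pgk1, Tubb3, Cdk1 and Mcm2 and the totals on TMM-scaled counts (CPM) were added after values were seen. Replicate numbers were not used as pairs (see the alternatives). Protein sequences were not used here.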

Additional observations from a re-analysis of the deposited data

How the results depend on the processing

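The number of the 10 genes called stayed between 7 and 9 in shPkm1, 6 and 9 in shPkm2 and 6 and 8 between the hairpins under all alternatives, each comparison against shScr unless stated. Of 476 log2 fold changes of the 10 genes under alternatives, 438 kept direction and side of the threshold, 11 lost the call, 13 gained it and 14 changed sign; for other listed genes 47 of 731 lost the call, 14 gained it and 9 changed sign, and for transcripts 87 of 552 lost it, 10 gained it and 19 changed sign. Signs turned with limma on log2(TPM + 1) and on log2(TPM + 0.1) for Pfkl in shPkm1 (0.18 in both) and Eno1 in shPkm1 (0.12 in both), shPkm2 (0.17 in both) and between the hairpins (0.0532 in both). They turned with library totals for Eno1 in shPkm2 (0.0459) and between the hairpins (0.12), with Eno1b added to Eno1 between the hairpins (0.0141), and with library totals for the transcripts XM_017313846.1 of Pfkl in shPkm1 (0.0681), NM_008826.4 of Pfkl in shPkm2 (0.27), and XM_006532161.3 of Eno3 (0.11), NM_007438.4 of Aldoa (0.0567) and NM_001276285.1 of Eno3 (0.0612) between the hairpins. Outside the 10 genes they turned with limma on log2(TPM + 1) and log2(TPM + 0.1) for Eno1b in shPkm2 (0.14 in both), Pgk1 in shPkm1 (0.25 in both) and Tubb3 in shPkm1 (0.00984 and 0.0130), and with library totals for Pgk1 in shPkm1 (0.0506). None of the turned values had a call. The cause was not tested.

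Same-numbered libraries did not deviate together (correlations of -0.02, 0.04 and 0.11 over 10953 genes), and the numbers were not used as pairs. With 2 libraries a group these correlations cannot exclude a shared culture or batch, and the labels name none. With the replicate block, 7, 7 and 7 of the 10 genes were called, 4 transcripts were called in shPkm1, 11 in shPkm2 and 3 between the hairpins, Pgam1 lost its call in shPkm1 (0.29; edgeR, adjusted p = 0.0564), and NM_008826.4 of Pfkl was at 0.00084 in shPkm2. DESeq2 called 3 of the other glycolytic genes between the hairpins.

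Shares of estimated counts in place of TPM were 17.1%, 9.75% and 11.4% for Hk2 in shScr, shPkm1 and shPkm2; 34.2% and 20.2% for Pfkm in shPkm1 and shPkm2; 99.996%, 99.957% and 99.987% for Aldoa; 14.3% and 9.06% for Eno3 in shPkm1 and shPkm2; and 21.8%, 4.49% and 0.0890% for Pgam2. The wider enolase family gave 18.5%, 12.9% and 8.06% for Eno3.

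Leaving out 1 library gave 0 to 11 transcript calls in shPkm1, 8 to 12 in shPkm2 and 0 to 6 between the hairpins (edgeR; unadjusted p under 0.05 for 13 transcripts at the lowest count in shPkm1, and for 11 or 12 between the hairpins). It gave 3 to 8 other glycolytic genes in shPkm2 and 3 to 6 between the hairpins; the low values of 3 came without the first shPkm2 library and without the first shPkm1 library. Signs turned within these ranges for Pfkl in shPkm2 (-0.0662 to 0.11) and Eno1 between the hairpins (-0.0578 to 0.0256), Tubb3 in shPkm2 (-0.19 to 0.53) and Eno1b between the hairpins (-0.0170 to 0.20). Among transcripts this held for XM_006507211.3 in shPkm1 (-0.0749 to 0.41), NM_001177307.1 in shPkm1 (-0.49 to 0.12) and shPkm2 (-0.0546 to 0.58), NM_023119.2 in shPkm1 (-0.15 to 0.20) and shPkm2 (-0.0230 to 0.30), and NM_008826.4 in shPkm2 (-0.20 to 0.20). Between the hairpins it held for XM_006532161.3 (-0.19 to 0.13), NM_001276285.1 (-0.35 to 0.22) and NM_019703.4 (-0.37 to 0.0241). Depth limited Aldoc, which was not tested with a mean of at least 50 counts nor, in shPkm2, in the fit of only the groups compared.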

Other observations

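Outside the 10 genes, the enolase family showed a further pattern. Eno2, the neuronal form, was at 16.3 and 19.5 TPM in shScr, 30.1 and 25.5 in shPkm1, and 18.5 and 17.1 in shPkm2. In shPkm1 its difference from shScr did not pass on TMM-scaled counts (0.23; edgeR, adjusted p = 0.0705) and was called by limma on log2(TPM + 1) (0.61, adjusted p = 0.00243), and in shPkm2 it was called lower on TMM-scaled counts (-0.45; edgeR, adjusted p = 0.00221) but not by limma on that scale (-0.01). Eno1b, a near-identical copy of Eno1, was at 1237 and 1576 TPM in shScr, 1312 and 1434 in shPkm1, and 1578 and 1491 in shPkm2, so the groups overlapped. On TMM-scaled counts it was called lower in both hairpin groups (log2 fold change -0.42 and -0.32; edgeR, adjusted p = 0.0110 and 0.0350), but on log2(TPM + 1) limma gave -0.03 and 0.14 with no call. Its direction in shPkm2 thus turns with the scale, as for Eno1, and no direction is given for it. The call in shPkm1 was also lost with library totals (-0.22) and without the first shPkm1 library (-0.30), and that in shPkm2 with library totals and without any 1 library other than the first shScr library (-0.23 to -0.32). The shPkm2 call was lost as well with a replicate block (-0.32, edgeR adjusted p = 0.0589) and with only those 2 groups fitted (-0.32, edgeR adjusted p = 0.0623). Pgk1, the step before the mutase and a single-copy gene for most tissues, was at 776 and 875 TPM in shScr, 999 and 956 in shPkm1, and 1161 and 1137 in shPkm2, an order like that of Pgam1, but it did not pass on TMM-scaled counts (-0.14 and 0.03; edgeR, adjusted p = 0.266 and 0.850). It was called in shPkm2 with library totals (0.35; edgeR, adjusted p = 0.00962) and by limma on log2(TPM + 1) (0.48, adjusted p = 0.00131).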
